A study of Mus musculus with 4 samples.

Results

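The Toll-like receptor genes of lung CD11b+Ly6g+ myeloid-derived suppressor cells (MDSCs) are described here in 4 RNA-seq libraries. The members are 10 genes, chosen by symbol in the deposited count table of 54532 genes: Tlr1, Tlr2, Tlr3, Tlr4, Tlr5, Tlr6, Tlr7, Tlr8, Tlr9 and Tlr13. All 10 passed the filter on low counts (10 or more in any library), as did 16369 genes in all. All groups were C57BL/6 mice of 6 to 8 weeks that carried a model of the pre-metastatic niche (PMN), in which medium conditioned by melanoma cells (MCM, 300 μl per mouse) was injected intraperitoneally for 10 days and B16F10 mouse melanoma cells were given intravenously on day 7. The control group (Ctrl) received no peptide. The TP5, sFD17 and FR17 groups received that peptide under the skin at 40 μM/kg/day from day 3 to the collection of lungs on day 10. The peptide TP5 is thymopentin in free form. FR17 holds the TP5 sequence on a self-assembling backbone through a linker that MMP2 cleaves, and sFD17 is the same construct with the TP5 sequence scrambled. Every group, control included, therefore had the conditioned medium and the tumor cells, and no library of an untouched lung is compared here.

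Each library came from the pooled CD11b+Ly6g+ cells of 10 to 12 mice, with 1 library per group. No comparison has a replicate check, no p-value is given, and every interval below is a 95% interval for counting error only. Totals lay between 15543071 and 19638228 counts per library. Levels are given as CPM (counts scaled to a common library size, with edgeR's TMM factors), and a gene was called where its CPM differed at least 2-fold between 2 libraries on edgeR's log2 scale with a prior count of 2. The sorting markers were detected throughout, with Itgam (CD11b) at 302 to 433 CPM and Ly6g at 73.1 to 111 CPM.

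Toll-like receptors are membrane proteins of innate immune cells that bind conserved microbial molecules and some products of damaged tissue. Tlr1, Tlr2, Tlr4, Tlr5 and Tlr6 act at the cell surface on lipoproteins, lipopolysaccharide and flagellin, while Tlr3, Tlr7, Tlr8, Tlr9 and Tlr13 sit in endosomes, where they meet nucleic acids. Most signal through the adaptor Myd88 to NF-kB, and Tlr3 and endosomal Tlr4 signal through Ticam1 to interferon regulatory factors. Neutrophils and macrophages, the relatives of MDSCs, carry several of these receptors, and their mix differs between cell types.

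Tlr2 was the most abundant member in every library, and the order by level per length was close to the same in all 4. In the control library, RPKM (CPM divided by gene length in kilobases) was 217 for Tlr2, 75.5 for Tlr13, 26.8 for Tlr6, 15.7 for Tlr7, 14.4 for Tlr8, 9.90 for Tlr4, 6.60 for Tlr1, 4.49 for Tlr9, 2.95 for Tlr5 and 0.944 for Tlr3. Tlr2 and Tlr13 led in each library, and Tlr5 and Tlr3 were lowest. In between, Tlr4 stood above Tlr7 and Tlr8 in sFD17, at 14.4 RPKM, and below both elsewhere, Tlr7 stood above Tlr6 in FR17 only, at 16.9 against 13.3 RPKM, and Tlr9 stood above Tlr1 in TP5 and sFD17. The neighbours whose intervals overlapped were Tlr7 and Tlr8 in the control and Tlr9 and Tlr1 in TP5 and sFD17. The plot of CPM by library shows the same values before division by length.

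**Figure D1:**
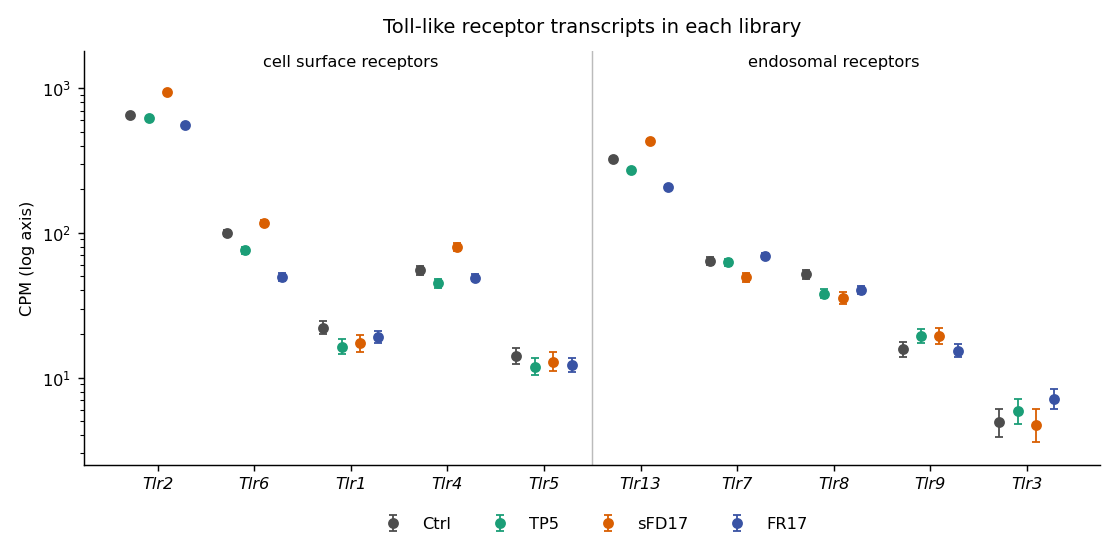
CPM (log axis) of the 10 Toll-like receptor genes in the Ctrl, TP5, sFD17 and FR17 libraries, with exact 95% Poisson intervals for counting error. Tlr2, Tlr6, Tlr4 and Tlr13 were highest in sFD17, whereas Tlr7 and Tlr8 were lowest there.

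Tlr2 (ENSMUSG00000027995, GRCm38 chr3:83836272-83841767, minus strand) pairs with Tlr1 or Tlr6 to bind bacterial lipoproteins. Tlr2 had 653 CPM in Ctrl, 622 in TP5, 946 in sFD17 and 552 in FR17, from 11037, 10913, 12483 and 12680 counts. The sFD17 library stood above the other 3. The sFD17 level was 1.45 times the control (1.41 to 1.49), and the FR17 level was 0.845 times the control (0.824 to 0.867). That small FR17 difference changed sign when libraries were scaled by total counts alone, and neither difference reached 2-fold. The RefSeq window from 250 bases before to 50 after the Tlr2 start, chr3:83841559-83841858 on the minus strand of GRCm38.p6, is shown because it holds 3 matches to the NF-kB consensus, the factor downstream of Myd88. The matches, in capitals, begin at -173, -172 and -8 from the start, and the first 2 overlap.
Tlr2: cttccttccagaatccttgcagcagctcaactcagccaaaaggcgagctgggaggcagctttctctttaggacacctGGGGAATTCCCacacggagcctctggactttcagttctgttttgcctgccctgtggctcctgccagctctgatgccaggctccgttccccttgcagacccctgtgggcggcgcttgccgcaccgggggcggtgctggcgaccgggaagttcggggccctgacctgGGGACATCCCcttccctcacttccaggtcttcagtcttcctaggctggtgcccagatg
Matches to the NF-kB consensus on either strand stood in 4.51% of all 32851 RefSeq windows of this length. Of the other members with a window, Tlr3 held 1 match. Tlr4 and Tlr7 had no window to search.

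Tlr6 (ENSMUSG00000051498, chr5:64952031-64960097, minus strand), the partner of Tlr2 for diacylated lipoproteins, had the widest range of the 10 genes. It had 99.9 CPM in Ctrl, 75.9 in TP5, 117 in sFD17 and 49.5 in FR17, from 1688, 1331, 1547 and 1136 counts. FR17 was the lowest library although it was the deepest. The FR17 level was 0.495 times the control (0.459 to 0.534), 0.652 times TP5 (0.602 to 0.707) and 0.422 times sFD17 (0.391 to 0.456). The log2 difference of -1.01 from the control lies just past the 2-fold line and its interval crosses that line. Without the filter on low counts, with a stricter one (at least 10 or at least 100 counts in every library) or with scaling by library size alone, the FR17 difference from control fell short of 2-fold.

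Of the 8 members with a RefSeq window, Tlr6 is the one with an interferon-stimulated response element core, GAAANNGAAA on either strand. Both of its windows are shown because interferon-stimulated genes had the most genes past 2-fold in sFD17 of the lists given below. Window 1, chr5:64959117-64959416, holds 2 overlapping matches, in capitals, that begin at -116 and -110. Window 2, chr5:64959999-64960298, holds 2 matches to the gamma-activated site TTCNNNGAA, at -3 and 8. Both lie on the minus strand.
Tlr6 window 1: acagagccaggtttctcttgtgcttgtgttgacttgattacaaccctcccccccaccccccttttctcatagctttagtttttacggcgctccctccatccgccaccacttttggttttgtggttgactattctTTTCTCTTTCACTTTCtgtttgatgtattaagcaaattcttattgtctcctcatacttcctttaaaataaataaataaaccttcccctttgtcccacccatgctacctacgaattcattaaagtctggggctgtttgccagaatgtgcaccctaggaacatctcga
Tlr6 window 2: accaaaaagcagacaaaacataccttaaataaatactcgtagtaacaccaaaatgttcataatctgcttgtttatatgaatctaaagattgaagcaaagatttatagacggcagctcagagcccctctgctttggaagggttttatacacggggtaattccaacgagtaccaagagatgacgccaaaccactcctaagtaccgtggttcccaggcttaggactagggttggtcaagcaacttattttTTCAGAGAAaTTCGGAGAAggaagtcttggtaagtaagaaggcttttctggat
The response element core stood in 3.44% and the gamma-activated site in 8.30% of all windows. Tlr1 and Tlr8 held the latter as well. Tlr9 held the only AP-1 site, TGANTCA, of the members with a window, present in 7.81% of windows. A match of letters is a description of the window and not a bound site.

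Tlr1 (ENSMUSG00000044827, chr5:64924679-64933563, minus strand), the partner of Tlr2 for triacylated lipoproteins, lies beside Tlr6. It had 22.1 CPM in Ctrl, 16.4 in TP5, 17.3 in sFD17 and 19.1 in FR17, from 373, 287, 228 and 439 counts. All 3 peptide libraries were below the control, with ratios of 0.741 (0.633 to 0.867), 0.782 (0.661 to 0.925) and 0.866 (0.753 to 0.997). The FR17 difference changed sign with library size alone. Tlr1 and Tlr6 are near-identical over part of their coding sequence, and a read that lies in an identical stretch fits both genes. How the counting treated such reads is not given in the sources used here. Of all stretches of 50 bases in the annotated transcripts, 454 were in both genes, which is 13.6% of those of Tlr1 and 12.3% of those of Tlr6. The longest identical run, of 229 bases in the coding sequence, lies at chr5:64925537-64925765 in Tlr1 and at chr5:64953828-64954056 in Tlr6, and is shown as an example of sequence from which both genes give the same read.
Tlr1 and Tlr6: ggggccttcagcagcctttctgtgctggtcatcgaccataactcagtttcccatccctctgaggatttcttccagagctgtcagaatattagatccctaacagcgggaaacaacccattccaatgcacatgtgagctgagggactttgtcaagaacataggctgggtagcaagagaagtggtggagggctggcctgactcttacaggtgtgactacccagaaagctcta
The remaining members had no stretch of 50 bases in common with another member. Counting every annotated gene, Tlr1 had at least 1 such stretch in common with 307 genes, Tlr4 with 2 and Tlr6 with 2, each of them under 100 stretches apart from the pair of Tlr1 and Tlr6. Tlr3 shared 5.30% of its stretches with Gm45542, a gene on the opposite strand, and a strand setting of the counting is not given in the sources used here.

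Tlr4 (ENSMUSG00000039005, chr4:66827584-66930284, plus strand), the lipopolysaccharide receptor, was, like Tlr2, highest in sFD17 with Ctrl next. It had 55.0 CPM in Ctrl, 44.7 in TP5, 79.8 in sFD17 and 49.1 in FR17, from 929, 784, 1053 and 1126 counts. The sFD17 level was 1.45 times the control (1.33 to 1.59) and 1.79 times TP5 (1.63 to 1.96). The FR17 level was 0.892 times the control (0.817 to 0.974), a difference that changed sign with library size alone. Tlr5 (ENSMUSG00000079164, chr1:182954788-182976044, plus strand), the flagellin receptor, varied least. It had 14.2 CPM in Ctrl, 11.9 in TP5, 12.9 in sFD17 and 12.2 in FR17, from 239, 209, 170 and 281 counts, and the intervals of all 6 ratios between libraries held 1.

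Tlr13 (ENSMUSG00000033777, chrX:106143204-106160493, plus strand), an endosomal receptor for bacterial ribosomal RNA, was the most abundant of the nucleic acid receptors. It had 325 CPM in Ctrl, 270 in TP5, 430 in sFD17 and 208 in FR17, from 5491, 4744, 5680 and 4765 counts. The libraries stood in the same order as for Tlr6, with sFD17 highest and FR17 lowest. The FR17 level was 0.639 times the control (0.614 to 0.664) and 0.482 times sFD17 (0.464 to 0.501), and the sFD17 level was 1.32 times the control (1.28 to 1.37). Its RefSeq window, chrX:106143025-106143324 on the plus strand, is shown beside those of Tlr6 because the profiles are alike while none of the 4 motifs searched is in these letters.
Tlr13: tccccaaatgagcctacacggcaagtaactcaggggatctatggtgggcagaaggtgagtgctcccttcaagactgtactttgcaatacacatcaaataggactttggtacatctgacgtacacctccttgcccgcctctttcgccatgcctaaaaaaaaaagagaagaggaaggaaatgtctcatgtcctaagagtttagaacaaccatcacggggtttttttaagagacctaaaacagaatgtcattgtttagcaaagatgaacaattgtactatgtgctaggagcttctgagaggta

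Tlr7 and Tlr8, the endosomal receptors for single-stranded RNA, are neighbours on chromosome X and did not share the Tlr13 profile. Tlr7 (ENSMUSG00000044583, chrX:167304929-167330558, minus strand) had 64.0 CPM in Ctrl, 62.5 in TP5, 49.3 in sFD17 and 69.1 in FR17, from 1081, 1097, 650 and 1585 counts. Here sFD17 was the lowest library, at 0.770 times the control (0.697 to 0.849), and the FR17 level was 1.40 times that of sFD17 (1.28 to 1.54). Tlr8 (ENSMUSG00000040522, chrX:167242696-167264329, minus strand) had 51.7 CPM in Ctrl, 38.02 in TP5, 35.6 in sFD17 and 40.3 in FR17, from 873, 667, 470 and 926 counts. The 3 peptide libraries were all below the control, with ratios of 0.736 (0.664 to 0.815), 0.689 (0.615 to 0.772) and 0.781 (0.711 to 0.857), and none of them reached 2-fold.

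Tlr9 (ENSMUSG00000045322, chr9:106222598-106226883, plus strand), the receptor for unmethylated CpG DNA, had 15.6 CPM in Ctrl, 19.3 in TP5, 19.3 in sFD17 and 15.4 in FR17, from 264, 339, 255 and 353 counts. TP5 and sFD17 were level with each other and 1.24 times the control, with intervals of 1.05 to 1.46 and 1.04 to 1.47. Tlr3 (ENSMUSG00000031639, chr8:45395665-45411080, minus strand), the receptor for double-stranded RNA, was the scarcest member. It had 4.91 CPM in Ctrl, 5.87 in TP5, 4.70 in sFD17 and 7.10 in FR17, from 83, 103, 62 and 163 counts. FR17 was the highest library, at 1.45 times the control (1.10 to 1.91) and 1.51 times sFD17 (1.12 to 2.06).

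Against control, 0 of 10 members passed 2-fold in TP5, where 8.18% of all tested genes did, 0 of 10 in sFD17, where 11.8% did, and 1 of 10 in FR17, where 7.5% did. The one was Tlr6, which was lower. The median log2 difference over the 10 members was -0.26 for the TP5 library, 0.08 for sFD17 and -0.21 for FR17, beside 0.0006, -0.03 and 0.02 over all tested genes. With library size alone the sFD17 median turned to -0.13 and the FR17 median to 0.037. In TP5, 8 members were below the control, where 8193 of all tested genes were above it and 8166 below. The intervals of 6 of these members excluded equality, Tlr1, Tlr2, Tlr4, Tlr6, Tlr8 and Tlr13. A gene with many counts can exclude equality at a small difference, as Tlr2 did at 0.952 times the control. The share of all tested genes whose interval excluded equality is not given here, for any library. In sFD17 the members split, with the interval above the control for Tlr2, Tlr4, Tlr6, Tlr9 and Tlr13 and below it for Tlr1, Tlr7 and Tlr8. These intervals take the TMM factors as exact. The sFD17 factor of 0.849 was below the 0.986 of Ctrl, so library size alone lowered every sFD17 ratio to control. In FR17 the interval was below the control for Tlr1, Tlr2, Tlr4, Tlr6, Tlr8 and Tlr13 and above it for Tlr3. The sign of the FR17 difference turned with library size alone for Tlr1, Tlr2, Tlr4, Tlr5 and Tlr9, and in TP5 that of Tlr7 did. These 3 comparisons share the control library. The remaining Toll-like receptor genes of the mouse, Tlr11 and Tlr12, were scarce. Tlr12, a receptor for protozoan profilin, had 95, 34, 23 and 79 counts in Ctrl, TP5, sFD17 and FR17, with log2 differences of -1.48, -1.63 and -0.69.

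**Figure D2:**
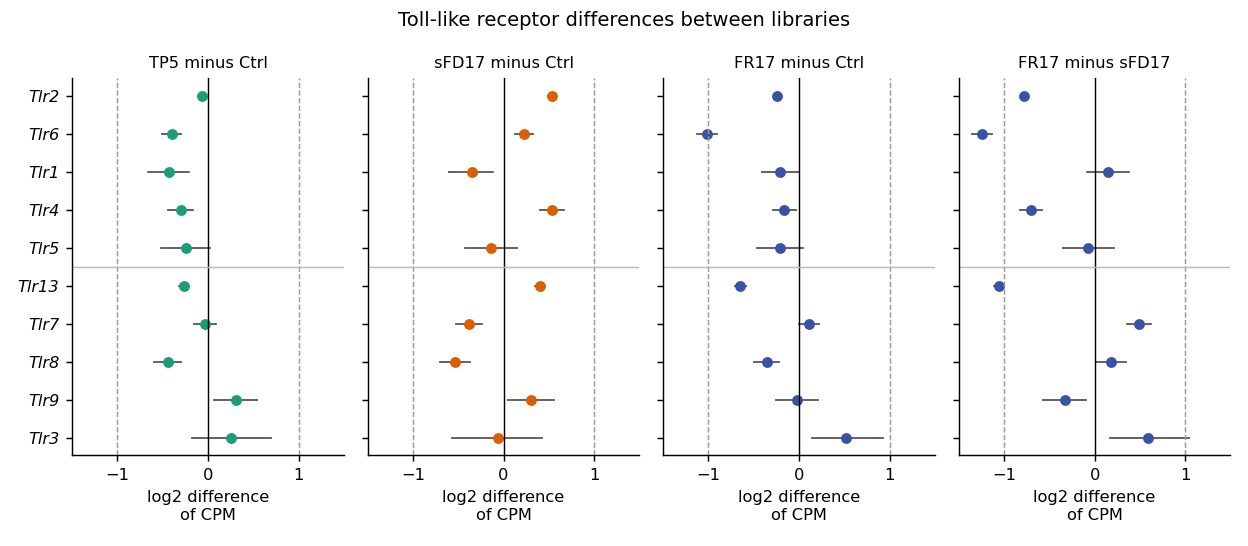
Log2 difference of CPM for each Toll-like receptor gene in TP5, sFD17 and FR17 against Ctrl and in FR17 against sFD17. Points are log2 differences, grey bars are 95% intervals for counting error, dashed lines mark 2-fold, and the grey horizontal line parts surface (above) from endosomal receptors. Tlr6 at -1.01 is the one point at or past a dashed line against Ctrl, and Tlr6 at -1.24 and Tlr13 at -1.05 are past it against sFD17.

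The 2 assembling peptides, which differ in the order of residues in the TP5 sequence, had the most genes past 2-fold of the 6 pairs of libraries. FR17 against sFD17 at the same dose and time had 2 of 10 members past 2-fold, Tlr6 at a log2 difference of -1.24 and Tlr13 at -1.05, beside 22.1% of all tested genes. Tlr2 followed at -0.78 and Tlr4 at -0.70, while Tlr3 was at 0.58 and Tlr7 at 0.49. The median of the members was -0.20 and that of all genes 0.07. FR17 against TP5, which differ in the backbone and linker, had 0 of 10 members past 2-fold where 9.92% of all genes passed. The largest difference was Tlr6 at -0.62. sFD17 against TP5 also had 0 of 10, where 12.4% passed, and Tlr4 at 0.83, Tlr13 at 0.67, Tlr6 at 0.63 and Tlr2 at 0.60 were the largest. With library size alone the log2 differences in FR17 against sFD17 moved by about the shift of the median of all genes, from 0.07 to 0.52, and Tlr6 was then at -0.78, Tlr13 at -0.59, Tlr2 at -0.31 and Tlr4 at -0.24, and the called member was Tlr3, higher in FR17.

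Ratios of 2 receptors within a library do not depend on the scaling between libraries. The pairs below were chosen after the values were seen. The ratio of Tlr6 to Tlr1 counts was 4.53 in Ctrl (4.04 to 5.08) and 4.64 in TP5 (4.08 to 5.29). It was 6.79 in sFD17 (5.90 to 7.83), against 2.59 in FR17 (2.32 to 2.90). Ctrl and TP5 overlapped, sFD17 stood above both and FR17 below. Reads from the identical stretches of Tlr1 and Tlr6 bear on this ratio, and their part was not tested. The ratio of Tlr13 to Tlr7 counts was 5.08 in Ctrl, 4.33 with TP5, 8.74 with sFD17 and 3.01 with FR17. That of Tlr7 to Tlr2 was 0.0979 in Ctrl, 0.101 with TP5, 0.0521 with sFD17 and 0.125 with FR17. Tlr4 over Tlr2 varied less, at 0.0842 in Ctrl, 0.0718 in TP5, 0.0844 in sFD17 and 0.0888 in FR17, with overlapping intervals apart from TP5. Tlr2 made up 50.04% of the counts on the 10 genes in Ctrl and 53.3% to 55.2% in the peptide libraries, and Tlr6 made up 7.65% in Ctrl, 6.50% in TP5, 6.85% in sFD17 and 4.84% in FR17.

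**Figure D3:**
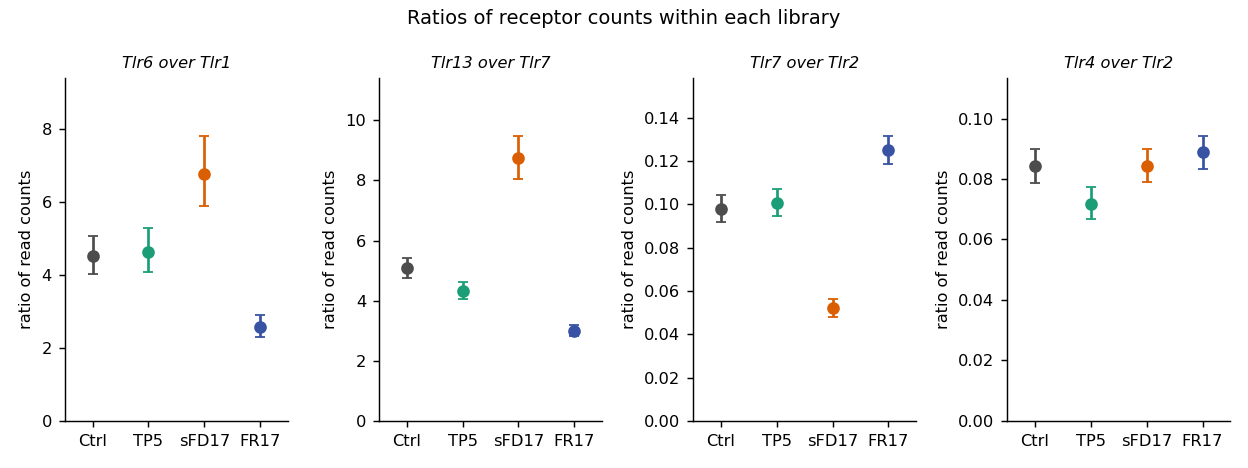
Ratio of read counts of 2 Toll-like receptor genes within each library, with exact 95% intervals for counting error, for Tlr6 over Tlr1, Tlr13 over Tlr7, Tlr7 over Tlr2 and Tlr4 over Tlr2. In sFD17 Tlr6 over Tlr1 reached 6.79 and Tlr13 over Tlr7 reached 8.74, and both were lowest in FR17, at 2.59 and 3.01.

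Markers of other cells in the sort also differed between the libraries, and fewer cells of a type and less RNA per cell cannot be told apart in pooled RNA. The summed CPM of 11 resident and interstitial macrophage markers (such as C1qa and Mrc1) was 3417 for Ctrl, 2009 for TP5, 1046 for sFD17 and 3995 for FR17, with 0 of 11 markers above the control in TP5 and in sFD17 and 10 in FR17. For 9 alveolar macrophage markers it was 652 in Ctrl, 567 in TP5, 248 in sFD17 and 893 in FR17, with 2, 0 and 9 above. For 14 neutrophil markers it was 36380, 39460, 47130 and 32030 in that order, with 10, 13 and 6 above. As a share of total counts the neutrophil markers were 3.59%, 4.03%, 4.0% and 3.74%. By that share TP5 was highest and Ctrl lowest, so the order of neutrophil signal depends on the scaling. Tlr3, Tlr7 and Tlr8 were lowest in sFD17, the library with the least macrophage signal. Tlr2, Tlr13, Tlr6 and Tlr4 were highest in sFD17, which had the most neutrophil signal by CPM but not by share of total counts. For Tlr3 the sFD17 level was 0.956 times the control (0.677 to 1.345), an interval that held 1. In FR17, which had the most macrophage signal and by CPM the least neutrophil signal, Tlr3 and Tlr7 were highest and Tlr2, Tlr6 and Tlr13 lowest. With library size alone the Tlr2 differences of FR17 from Ctrl and from TP5 changed sign, so Tlr2 was not lowest there. Tlr8 was highest in Ctrl and Tlr4 lowest in TP5. In TP5 the neutrophil sum was 1.08 times the control, while Tlr2, Tlr4, Tlr6 and Tlr13 were 0.952, 0.813, 0.759 and 0.832 times it. The neutrophil list was split in TP5, with 10 markers above the control and 4 below. The 4 were S100a9, Csf3r (3571 against 4952 CPM), Cxcr2 (610 against 839 CPM) and Il1r2 (1832 against 2456 CPM). Csf3r was at 2409 CPM in FR17. In FR17 the sums of the macrophage lists were 1.17 and 1.37 times the control, and Tlr3, Tlr7 and Tlr8 were 1.45, 1.08 and 0.781 times it.

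Sums of the other lists, in the order Ctrl, TP5, sFD17 and FR17, were 1949, 2076, 2156 and 2081 for monocytes and 185, 334, 203 and 242 for conventional dendritic cells, whose 8 markers were all above the control in TP5. B cell markers summed to 119, 196, 143 and 163 and plasmacytoid dendritic cell markers to 12.8, 16.9, 9.62 and 21.7, and both cell types are known to use Tlr7 and Tlr9. NK cell markers summed to 28.0, 17.1, 21.3 and 89.7 and T cell markers to 29.8, 33.6, 25.4 and 63.0, with all 7 of each list above the control in FR17. Fibroblast markers summed to 252, 142, 218 and 259, with 0 of 8 above the control in TP5. Endothelial markers summed to 132, 92.1, 138 and 171 and epithelial markers to 85.3, 94.9, 97.5 and 107. No marker of the 12 lists was at 0 in any library. Their part in the receptor differences was not tested.

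The genes of proteins that help the receptors bind and reach their compartment, with nucleases that cut their ligands, had 4 members past 2-fold against control, all lower in sFD17, where 11.8% of all tested genes passed in either direction. In TP5 and FR17, where none of these genes passed, the shares were 8.18% and 7.5%. Cd14, which hands lipopolysaccharide to the Tlr4 complex, had 2864 CPM in Ctrl, 2301 in TP5, 4966 in sFD17 and 1862 in FR17, in the order of libraries that Tlr13 had. Ly96, the Tlr4 partner that holds lipopolysaccharide, was scarce, at 6.10, 6.67, 5.68 and 7.19 CPM. Of 11 co-receptors and accessory proteins, 0 passed 2-fold against control in TP5 and in FR17, and in sFD17 2 were lower, the endosomal proteases Lgmn at a log2 difference of -1.15 and Ctsk at -2.44. These proteases process endosomal receptors and are abundant in macrophages. Unc93b1, which carries endosomal receptors out of the endoplasmic reticulum, was at 530 to 588 CPM, and Cnpy3, a folding chaperone of the family, at 76.8 to 90.5 CPM. None of the 7 chaperone and trafficking genes passed 2-fold against control. Of 5 nucleases that cut nucleic acid ligands, Dnase2a at -1.16 and Pld3 at -1.5 were lower in sFD17, and none passed in TP5 or FR17.

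The counts of signaling genes past 2-fold against control stand beside 8.18% of all tested genes for TP5, 11.8% for sFD17 and 7.5% for FR17. Of 6 adaptor genes 5 could be compared, since Sarm1 had at most 4 counts, and none passed 2-fold against control. Myd88, the shared adaptor, was at a log2 difference of -0.15 with TP5, 0.54 with sFD17 and -0.51 with FR17, and Tirap, which brings Myd88 to surface receptors, at -0.14, 0.48 and -0.61. Ticam1 and Ticam2, the adaptors of the interferon branch, lay between -0.28 and 0.23. FR17 against sFD17, where 2 of 10 receptors passed, had 3 of 5 adaptors past 2-fold, Myd88, Tirap and Pik3ap1, all lower in FR17, beside 22.1% of all tested genes. The adaptors were not alone in this pair. Lower in FR17 were also 3 of 8 transcription factors, 6 of 15 negative regulators and 13 of 15 interferon-stimulated genes. Of 16 target genes 9 were lower and 2 higher, and of 19 kinases and ubiquitin ligases 3 were lower and 1 higher. Among 19 kinases and ubiquitin ligases none passed in TP5 or FR17 and in sFD17 Ikbke, an interferon pathway kinase, was higher at 2.70 and Peli3 lower, from 17 counts in the control. Irak4 and Traf6, the first kinase and the ubiquitin ligase after Myd88, were within -0.25 to 0.27 in all 3 libraries. Of 8 transcription factors Irf7 at 2.38 and Nfkb2 at 1.12 were higher in sFD17, and none passed in the other 2. Of 15 negative regulators Tnip1 was higher in sFD17 at 1.18, and none passed in TP5 or FR17.

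Of 16 genes that the receptors are known to induce, 3 passed 2-fold in TP5, 6 in sFD17 and 2 in FR17, beside 8.18%, 11.8% and 7.5% of all tested genes. In sFD17, 4 were higher, namely Tnf at 1.09, Cxcl10 at 2.39, Nos2 at 3.54 and Marcksl1 at 1.09, and 2 lower, Il6 at -1.20 and Il10 at -1.05. TP5 had Il12b higher at 1.17 and Il10 at -1.19 and Ifnb1 at -1.35 lower, where Il12b and Ifnb1 rest on 55 and 47 control counts. FR17 had Ccl5 higher at 1.34 and Cxcl2, a neutrophil chemokine, lower at -1.03. Of 15 interferon-stimulated genes 12 were at least 2-fold higher in sFD17, with a median of 2.03, led by Ifit2 at 3.98, Gbp2 at 3.59 and Gbp5 at 3.54. Of the same 15, 1 was lower in TP5 (Ifi44, with 15 control counts) and 0 passed in FR17, with medians of -0.24 and -0.44. Tlr6, the one member whose window holds the response element core, was at 0.23 in sFD17. Among 8 endogenous ligands that could be compared, S100a8 and S100a9, the calgranulins of neutrophils, differed by at most 0.43, Saa3 was lower in TP5 at -1.71, Vcan was higher in TP5 at 1.28 and in sFD17 at 1.82 from 37 control counts, and Fn1 was lower in sFD17 at -1.42.

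**Figure D4:**
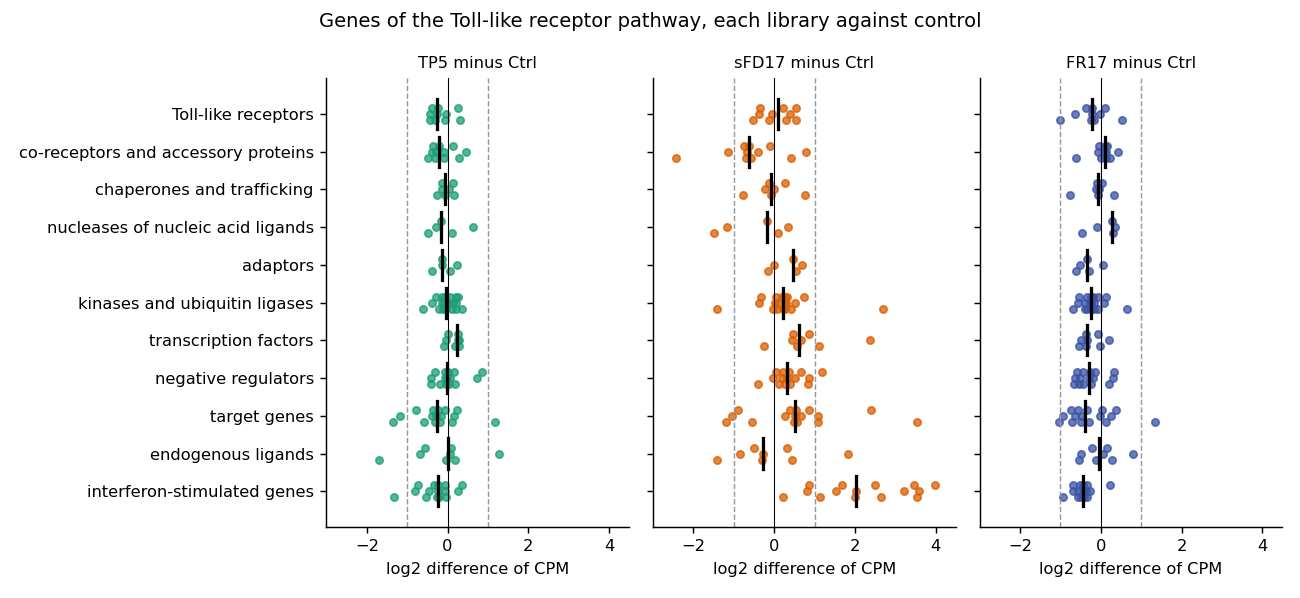
Log2 difference of CPM against Ctrl for the 10 Toll-like receptor genes and the genes of 10 lists around them, in TP5, sFD17 and FR17 (Tlr11 and Tlr12 are not drawn). Each point is a gene, black bars are list medians and dashed lines mark 2-fold. The interferon-stimulated genes in sFD17, with a median of 2.03, stand farthest from 0, and the 10 receptors lie within 2-fold apart from Tlr6 in FR17.

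The genes most like the 3 widest-ranging members were taken by the root mean square difference between centred log2 CPM profiles over the 4 libraries, among the 10338 genes that reached 100 counts in a library. For Tlr6 they were Gcnt2 at 0.0152, Cxcl2 at 0.0195 and Lypd6b at 0.0215. Cxcl2 had log2 differences from control of -0.39 (TP5), 0.26 (sFD17) and -1.03 (FR17), where Tlr6 had -0.40, 0.23 and -1.01. For Tlr13 they were Vnn3 at 0.0174, Dusp1 at 0.0202 and Abr at 0.0226. Dusp1, a phosphatase that limits kinase signaling after receptor activation, had -0.30, 0.38 and -0.63 beside -0.27, 0.40 and -0.65 for Tlr13. For Tlr4 they were Lpp at 0.0302, Mvp at 0.0333 and Cdc25b at 0.0546. With 4 points per profile, such likeness is a description.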

How the data were processed

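CD11b+Ly6g+ MDSCs were sorted from lung by FACS, and libraries were made with a strand-keeping kit. The deposited values are whole-number counts of reads on each gene, which the authors did not normalize. The submitters' processing notes name HISAT2 2.0.5, StringTie 1.3.3b, featureCounts 1.5.0-p3, edgeR 3.18.1 and the build GRCm38.p6. Groups came from the sample titles, and 0 sample columns were left unmapped.

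Log2 CPM was computed with edgeR 4.0.16 in R 4.3.3, with TMM factors from 0.849 (sFD17) to 1.17 (FR17) and a prior count of 2, over genes that reached 10 counts in any library. Quasi-likelihood tests need more libraries than groups, so a gene was called at a 2-fold difference. CPM carries an exact Poisson interval and a ratio an exact interval conditional on the sum of both counts. RPKM used the lengths in the file. The procedure was tested on simulated data. Total counts of 15543071 or more per library put the member counts between 62 and 12680.

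The members, gene lists and marker lists were chosen with earlier results of these data known. Named were all members, genes past 2-fold against control with at least 50 counts in 1 of both libraries (up to 3 per list and comparison) and a set of accessory and adaptor genes. Tnf, Marcksl1, Il10 in sFD17, Ifnb1, Peli3, Pik3ap1 and Sarm1 were named after their values were seen. Coordinates were compared with GENCODE M21 and were the same for all 10 members. Of the 10 members 8 matched a RefSeq window, and Tlr4 and Tlr7 did not. A planned comparison of receptor proteins was not run here, and identical transcript stretches were counted instead. Alternatives were DESeq2 1.42.0 size factors, library size alone, 3 other count filters, a prior count of 0.5, a 1.5-fold call and edgeR's exact test.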

Additional observations from a re-analysis of the deposited data

How the results depend on the processing

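No member difference past 2-fold turned its direction. Against control, FR17 had 0 members past 2-fold with library size alone, no filter, or at least 10 or at least 100 counts in every library, since Tlr6 lies on the line. The shares of all tested genes there were 8.6%, 10.9%, 3.33% and 0.863%. At 1.5-fold FR17 had 2 members against control, beside 22.7% of all tested genes. FR17 against sFD17 had 1 with library size alone (Tlr3, higher), 1 with no filter and 1 with at least 100 counts in every library. The shares of all tested genes were 30.5%, 21.3% and 11.3%. At 1.5-fold this pair had 4 members, beside 46.0% of all tested genes. At 1.5-fold FR17 against TP5 had 1, beside 24.5%, and sFD17 against TP5 had 4, beside 31.8%. DESeq2's size factors gave member counts within 1.5 times of the main ones in all 6 comparisons. edgeR's exact test compares single libraries, with a dispersion taken over all 4 (a coefficient of variation of 0.268), and bears nothing on the stability of the calls. The member median moved with library size alone to -0.13 for sFD17 and 0.037 for FR17 against control, to 0.26 for FR17 against sFD17, to 0.25 for FR17 against TP5 and to -0.17 for sFD17 against TP5. It moved to 0.19 for sFD17 against control with at least 100 counts in every library (9 members left) and to -0.090 for FR17 against sFD17 with no filter. Library size alone moved the median of all genes from -0.03 to -0.23 for sFD17 and from 0.02 to 0.26 for FR17 against control, and split the calls of FR17 against sFD17 into 4209 higher and 782 lower in place of 1847 and 1766. Among the other lists, library size alone moved 4 counts of called genes and left 29 alike, and moved 22 medians and left 11. With 1 library per group, which the design confounds with mouse pool and preparation, no library could be left out. No paired analysis was possible because the labels carry no replicate numbers and each group has 1 library. Counts under 100, as for Tlr3, limit what can be seen.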
